A study of Arabidopsis thaliana with 12 samples.

Results

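Leaf transcript levels were compared between ptpkis2 and sex4-3, 2 Arabidopsis thaliana mutants in related phosphatase genes. The comparison took every array of these genotypes, 3 of ptpkis2 and 3 of sex4-3, which are 6 of the 12 Affymetrix ATH1 arrays of the study, and described them across all probe sets. The ptpkis2 plants came from the insertion line Salk_053285 and the sex4-3 plants from the insertion line Salk_102567, so each genotype stands for a single line. The other arrays, 3 of the induced mutant sex1-3 in Col-0 and 3 of wild type Columbia, entered neither the filter nor the fit, and their signals are given as side values. Plants of all 4 genotypes were at developmental stage 3.70 and had grown at 20 degrees Celsius under a 12-hour day, with light of 100 micromol m-2 s-1. Per the labels, 8 plants of a genotype gave 3 leaves, taken under a green lamp 0.5 hours before the light came on. Whether 2 arrays of a genotype hold RNA of different plants is not stated in the labels. The p-values below therefore speak only of the spread between arrays, and that spread may be technical.

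Arabidopsis leaves store starch by day and break it down at night, and mutants that break it down slowly are called starch excess (sex) mutants. The breakdown begins when glucan, water dikinases, of which SEX1 is one, phosphorylate the starch surface. The phosphate must be removed again by phosphoglucan phosphatases for the glucan chains to be fully degraded, which is the role of SEX4. PTPKIS2, also called LSF1, belongs to the same protein family and is needed for normal starch breakdown, but it is not known as an active phosphatase. Just before dawn, leaf transcripts of many genes that are repressed by sugar and of genes tied to the energy sensor kinase SnRK1 reflect the carbon available at the end of the night. No probe set is named SEX4, LSF1 or SEX1 in the annotation used here, so the labels could not be checked by the mutated genes' own transcripts.

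Correlations of log2 signal were between 0.968 and 0.975 among ptpkis2 arrays and between 0.948 and 0.973 among sex4-3 arrays, against 0.949 to 0.964 between the genotypes. The sex4-3 array that stood apart was replicate 1. It correlated with sex4-3 replicate 3 at 0.948, no more closely than with the ptpkis2 arrays (0.949 to 0.951), but with sex4-3 replicate 2 at 0.961. Its array weight, 0.369, was the lowest of the 6. The authors had scaled every array to the same trimmed mean. The median signal was nevertheless 29.3 to 29.7 on ptpkis2 arrays and 26.9 to 28.0 on sex4-3 arrays, without overlap, and its part in the results was not tested beyond the alternative centring given with the counts. The 3′ to 5′ signal ratio of the GAPDH control, a measure of RNA integrity, was 0.928 to 1.11 on ptpkis2 arrays and 0.883 to 0.978 on sex4-3 arrays. That of the actin control was 2.70 to 5.43 on ptpkis2 arrays and 3.12 to 4.44 on sex4-3 arrays, highest on replicate 1 of each genotype, and its part in the results was not tested. Leaf identity was clear from RCA and PRK, enzymes of the photosynthetic carbon cycle and the only 2 of 8 mesophyll markers named here, whose summed signal was 13980 to 16020 in ptpkis2 and 14230 to 17090 in sex4-3. PYK10, the only named root marker, was at 0.878 to 10.6 in ptpkis2 and at 1.84 to 8.01 in sex4-3. Wild type replicate 2 stood apart from the other 11 arrays, with a median signal of 62.2, and its signals are named separately wherever they are given. In whole leaves, fewer cells of a type and less RNA per cell cannot be told apart.

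Of 13647 probe sets tested, 209 (1.53%) differed between ptpkis2 and sex4-3 at an adjusted p below 0.05, of which 91 (0.667% of those tested) were higher and 118 (0.865%) lower in ptpkis2. All 209 had signals that did not overlap between the genotypes, a separation shown by 2848 probe sets (20.9%) of those tested. The median log2 fold change, given throughout as ptpkis2 minus sex4-3, was 0.99 among the higher calls and -0.91 among the lower calls, and 0.038 over all probe sets tested. The change exceeded 2-fold for 92 of the calls, 45 higher and 47 lower. Exactly 1 gene could be given to 88 of the calls (29 higher, 59 lower), and 120 are unnamed here. The number of calls depended on single arrays: it was 92, 69 and 63 without ptpkis2 replicates 1, 2 and 3, 440 without sex4-3 replicate 1 and 86 without sex4-3 replicate 2. Centring each array on its median, which moved the median of all fold changes to -0.062, gave 78 higher and 258 lower calls, so that the lower share became 76.8% instead of 56.5%.

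**Figure D1:**
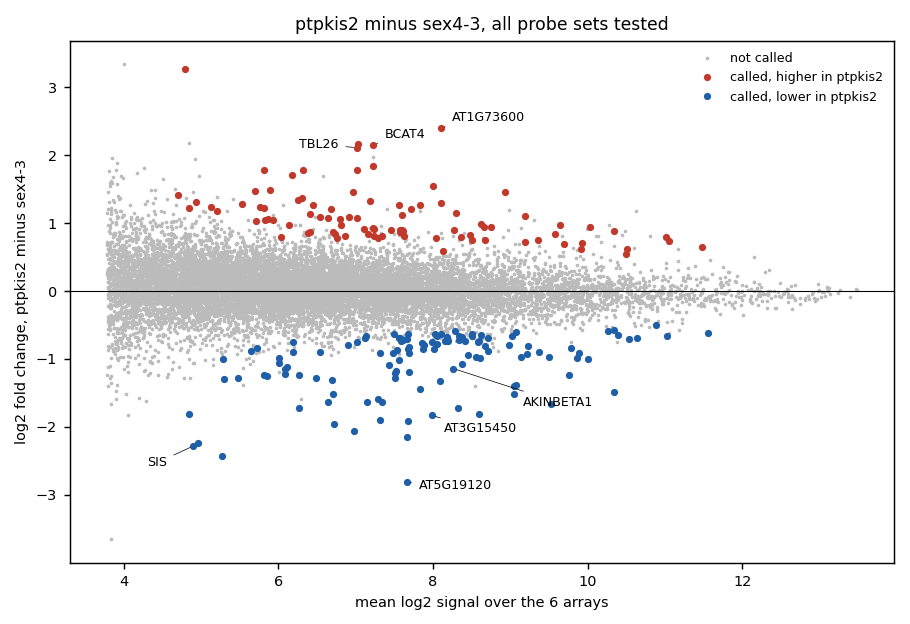
Log2 fold change (ptpkis2 minus sex4-3, vertical axis) against the mean log2 signal over the 6 arrays (horizontal axis) for the 13647 probe sets tested, with called probe sets coloured by direction. The calls lie on both sides of 0, with 91 higher and 118 lower in ptpkis2, and AT5G19120 is the lowest call at -2.82.

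The 15 largest falls with a named gene included 5 genes listed as repressed by sugar. The named gene with the largest fall, AT5G19120, had signals of 81.7, 71.4 and 76.9 in ptpkis2, against 669, 508 and 461 in sex4-3. Every ptpkis2 array lay far below every sex4-3 array, a 7.04-fold difference (log2 fold change -2.82 ± 0.16 SE, limma adjusted p = 3.56e-05, n = 3 arrays each). AT3G15450, from the list of sugar-repressed genes, had signals of 146, 139 and 120 in ptpkis2, against 441, 532 and 466 in sex4-3. Its groups were 3.56-fold apart without overlap (-1.83 ± 0.14, adjusted p = 0.00017). The same gene was at 2730 to 3199 on sex1-3 arrays, at 869 and 582 on wild type replicates 1 and 3, and at 648 on wild type replicate 2.

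Of 20 sugar-repressed genes in a list, 7 were tested and 5 were called, all 5 lower in ptpkis2, with a median log2 fold change over the 7 of -1.83. Over all probe sets tested, 0.865% were called lower and the median was 0.038. The list's members were picked with earlier results of these samples known, so its direction is not independent evidence. Besides AT3G15450, the called members were SIS, AT4G27450, AT2G20670 and AT2G05540. SIS, listed as a salt-induced serine-rich protein, had signals of 13.9, 9.02 and 19.9 in ptpkis2, against 61.9, 61.4 and 75.2 in sex4-3 (-2.28 ± 0.31, adjusted p = 0.00439). The ptpkis2 signals of SIS lay below the median signal of 28.5 over all probe sets, while its sex4-3 signals lay above it. AT4G27450 had signals of 102, 107 and 109 in ptpkis2, against 264, 454 and 523 in sex4-3 (-1.91 ± 0.22, adjusted p = 0.00195). Its sex4-3 arrays spread widely, with replicate 1 the lowest, yet none came near the ptpkis2 arrays. AT2G20670 had signals of 90.8, 70.4 and 86.9 in ptpkis2, against 338, 318 and 269 in sex4-3 (-1.90 ± 0.16, adjusted p = 0.000278). AT2G05540 had signals of 74.8, 121 and 86.2 in ptpkis2, against 249, 292 and 318 in sex4-3 (-1.63 ± 0.19, adjusted p = 0.00195). The 2 members that were not called were AT4G35750, at -0.70 ± 0.18 (adjusted p = 0.0887), and ATL8, a RING-type ubiquitin ligase, at 0.28 ± 0.25 (adjusted p = 0.665). The 5 called members kept their calls under every alternative run that tested them.

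On the side arrays, the mean log2 signal of wild type replicates 1 and 3 lay nearer to sex4-3 than to ptpkis2 for 13 of the 15 largest named falls, and the sex1-3 mean lay above both mutants for 14 of the 15. The 15 largest named rises were divided, with those wild type arrays nearer to sex4-3 for 7 and to ptpkis2 for 8. For 14 of these rises the sex1-3 mean lay below both mutants. The 2 falls with wild type nearer to ptpkis2 were AT2G05540 and AT1G66760. AT4G27450 averaged 1316 on sex1-3 arrays and 605 on wild type replicates 1 and 3, beside 106 in ptpkis2 and 414 in sex4-3. AT2G05540 averaged 1183 on sex1-3 arrays but 136 on wild type replicates 1 and 3, which is closer to its 93.9 in ptpkis2 than to its 286 in sex4-3. AT1G66760, a further fall (-2.42 ± 0.35, adjusted p = 0.0063), averaged 18.5 in ptpkis2, 89.9 in sex4-3 and 34.4 on wild type replicates 1 and 3, so sex4-3 was the farther of the 2 mutants from those wild type arrays. For AT5G19120 it was ptpkis2 that lay farther from them, at 76.7 beside 546 in sex4-3 and 393 on wild type replicates 1 and 3. These are levels set side by side, and no difference from wild type or sex1-3 was tested.

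**Figure D2:**
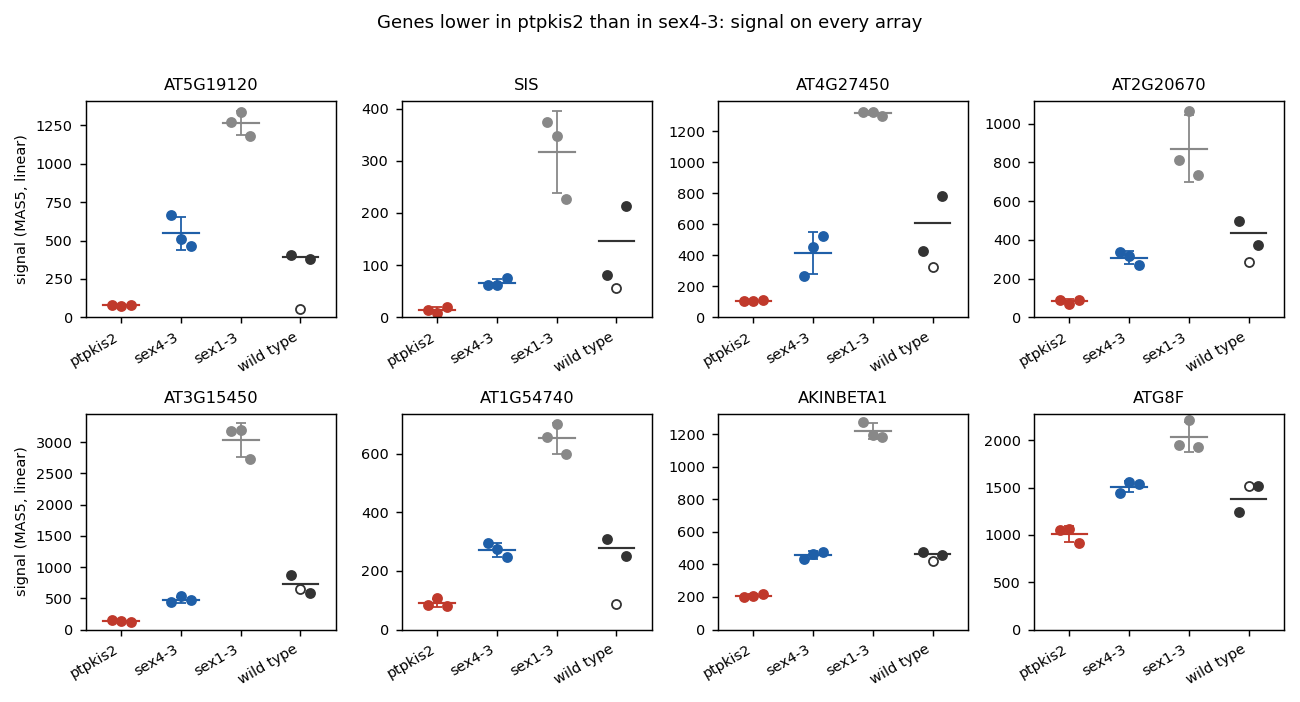
Signal of 8 genes called lower in ptpkis2 on every array (vertical axis, linear MAS5 signal), by genotype (horizontal axis), with the mean and SD of 3 arrays as bars; the wild type bar is the mean of replicates 1 and 3 alone, and the open circle is wild type replicate 2. For AT5G19120 the ptpkis2 arrays sit at 71.4 to 81.7, below the sex4-3 arrays at 461 to 669. The 2 genotypes do not overlap for any of the 8 genes, which holds for all 209 calls.

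SnRK1 is a protein kinase of an alpha, a beta and a gamma subunit that is active when sugars are scarce. Of the 7 genes in its list, 3 had a named and tested probe set, all for beta subunits. A call, lower in ptpkis2, was made for 1 of them, beside 0.865% of all probe sets tested. AKINBETA1 had signals of 199, 207 and 215 in ptpkis2, against 432, 462 and 477 in sex4-3. The arrays within each genotype were close together and the genotypes 2.21-fold apart (-1.14 ± 0.12, adjusted p = 0.00123). AKINBETA1 averaged 1217 on sex1-3 arrays and 467 on wild type replicates 1 and 3, the wild type mean standing near that of sex4-3. The other beta subunit genes, AT4G16360 (KINbeta2) and AT2G28060 (KINbeta3), were not called. AT4G16360 averaged 154 ± 9.37 in ptpkis2 and 148 ± 18.4 in sex4-3 (SD, n = 3 arrays each), and the 95% interval of its log2 difference, -0.27 to 0.38, did not reach the fall of AKINBETA1. AT2G28060 averaged 131 ± 12.9 in ptpkis2 and 124 ± 4.61 in sex4-3, with an interval of -0.24 to 0.39.

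Among all tested genes with a name, AKINBETA1 also followed AT3G15450 most closely over 11 arrays, leaving out wild type replicate 2, with a correlation of log2 signal of 0.990. Next came AT5G05100 (0.987), AT1G10140 (0.986), AT1G74840 (0.984) and AT1G54740 (0.980). These correlations run over arrays of 4 genotypes, in which sex1-3 takes the high end, and they are a description with no test. AT1G54740 had signals of 85.4, 106 and 80.6 in ptpkis2, against 296, 275 and 246 in sex4-3 (-1.59 ± 0.16, adjusted p = 0.000618). AT5G05100 and AT1G10140 were also called, at -0.59 ± 0.12 (adjusted p = 0.043) and -0.84 ± 0.18 (adjusted p = 0.045). AT1G74840 was not called, at -0.50 ± 0.14 (adjusted p = 0.10).

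ATG8 proteins are small ubiquitin-like proteins that are joined to the membranes of autophagosomes, the vesicles that carry cell contents to the vacuole when nutrients run short. All 9 ATG8 genes were tested and 1 was called, lower in ptpkis2, beside 0.865% of all probe sets tested. All 9 log2 fold changes lay below 0, also under quantile normalization and median centring, with a median of -0.38 beside 0.038 over all probe sets. ATG8F had signals of 1054, 1061 and 913 in ptpkis2, against 1440, 1556 and 1536 in sex4-3, a difference without overlap (-0.58 ± 0.12, adjusted p = 0.032). ATG8E was at -0.57 ± 0.17 (adjusted p = 0.135) and ATG8C at -0.40 ± 0.13 (adjusted p = 0.164), and neither was called. The call of ATG8F was lost without any 1 of the ptpkis2 arrays and without sex4-3 replicates 2 or 3. It was lost also with no filter, without a trend in the variance and with the replicate block. ATG8F was called in 10 of 18 alternatives, with an adjusted p between 0.00225 and 0.191.

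Genes for the breakdown of amino acids, which leaves use as fuel in prolonged darkness, gave no call. Of 15 listed genes 7 were tested with limma, 1 had an unadjusted p below 0.05, and the median log2 fold change was -0.04. MCCA, a subunit of the carboxylase in leucine breakdown, was the lowest at -0.71 ± 0.18 (adjusted p = 0.0856), and its 3 ptpkis2 signals lay below its 3 sex4-3 signals. IVD, which acts just before it in leucine breakdown, was at 0.05 ± 0.22 (adjusted p = 0.948). MGL, a methionine lyase, was at -0.27 ± 0.33 (adjusted p = 0.77). Under median centring MCCA was called, at -0.81. Over all probe sets tested, 14.7% had an unadjusted p below 0.05.

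Few genes of starch breakdown itself could be read. Of 23 listed genes 3 have a named probe set here, and limma called 0 of them, with 0 at an unadjusted p below 0.05. PWD, the dikinase that acts on starch already phosphorylated by SEX1, had signals of 219, 185 and 217 in ptpkis2, against 205, 168 and 127 in sex4-3 (0.34 ± 0.18, adjusted p = 0.437). The groups overlapped, and the 95% interval of the difference was -0.06 to 0.74. AMY1, an alpha-amylase, averaged 26.6 ± 15.1 in ptpkis2 and 19.4 ± 7.28 in sex4-3 (0.34 ± 0.49, adjusted p = 0.809). DPE1, the plastid disproportionating enzyme that handles short maltodextrins, averaged 26.5 ± 9.79 in ptpkis2 and 28.4 ± 11.3 in sex4-3 (-0.09 ± 0.37, adjusted p = 0.946). The genotype means of AMY1 and DPE1 lay below the median signal of 28.5, though single arrays reached 41.1 for AMY1 and 40.1 for DPE1. The 95% intervals of their differences, -0.74 to 1.42 and -0.90 to 0.73, were wide. In starch synthesis 4 of 18 listed genes were tested and limma called 0, with 0 at an unadjusted p below 0.05 and a median of -0.04. QQS, an orphan gene known to affect leaf starch content, was at -0.28 ± 0.20 (adjusted p = 0.57).

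**Figure D3:**
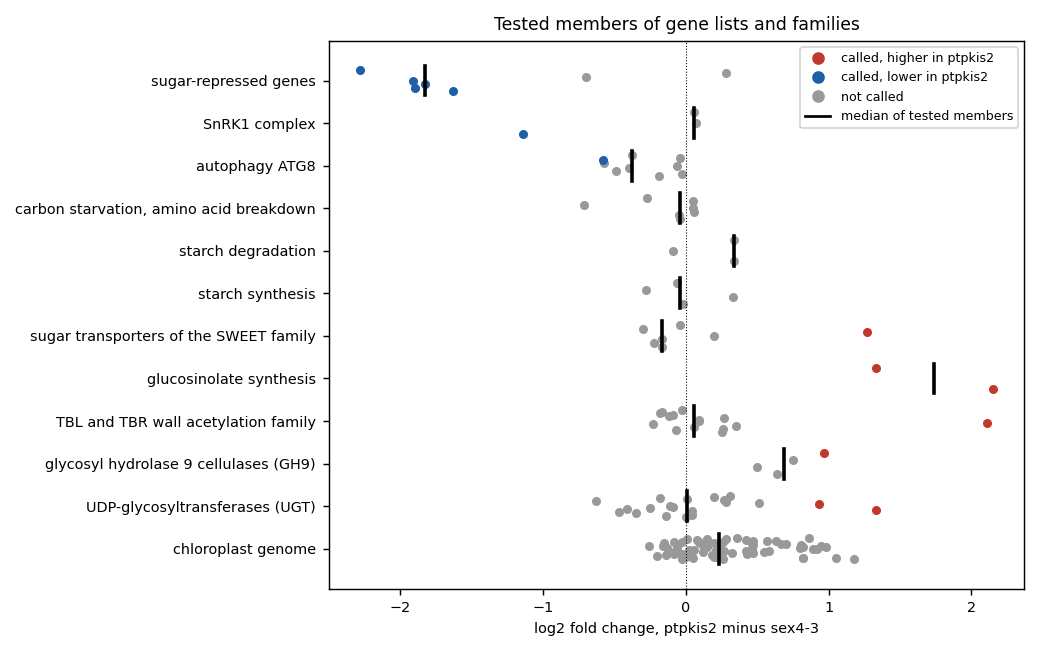
Log2 fold change (ptpkis2 minus sex4-3, horizontal axis) of each tested member of 12 gene lists or families (rows), coloured by call, with the median of the tested members as a vertical line. The sugar-repressed genes have a median of -1.83, while the SnRK1 list at 0.06 and the starch synthesis list at -0.04 have medians near 0.

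Most of the other large falls were of genes known here by locus alone. AT3G15630 (-1.52), AT3G07870 (-1.44), AT1G23390 (-1.40), AT2G29670 (-1.33), AT1G78450 (-1.30), AT2G30600 (-1.28) and AT3G07350 (-1.24) completed the 15 largest with a named gene. AT1G23390 was the brightest of these, with signals of 319, 306 and 355 in ptpkis2, against 883, 906 and 792 in sex4-3 (-1.40 ± 0.12, adjusted p = 0.00032). AT2G30600 has 2 probe sets, of which the second was at -0.72 ± 0.25 and was not called (adjusted p = 0.201). Without ptpkis2 replicate 2 the calls of AT3G15630, AT1G78450, AT2G30600 and AT3G07350 were lost, that of AT3G07350 also without each of the other ptpkis2 arrays, and those of AT1G78450 and AT2G30600 also without sex4-3 replicate 2. AT2G30600 was not called without ptpkis2 replicate 3 either. Without a trend in the variance the calls of AT3G15630 and AT3G07350 were lost. The ptpkis2 signals of AT1G78450, 22.7, 24.9 and 27.7, lay below the median signal of 28.5. The 39 called named genes outside the 15 largest and without a symbol, AT5G05100 and AT1G10140 among them, were lower by between 0.50 and 1.21 on the log2 scale, AT2G27830 having the largest of these falls.

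GME, SKP2A and bHLH121 were further called falls with a gene symbol, chosen after their values were seen. GME, an epimerase of GDP-mannose in the synthesis of ascorbate and wall sugars, had signals of 1010, 1147 and 1066 in ptpkis2, against 1852, 1620 and 1567 in sex4-3 (-0.64 ± 0.12, adjusted p = 0.0235). SKP2A, an F-box protein that marks cell-cycle regulators for breakdown, had signals of 135, 107 and 109 in ptpkis2, against 278, 181 and 211 in sex4-3 (-0.92 ± 0.18, adjusted p = 0.032). bHLH121, a transcription factor of the iron deficiency response, had signals of 136, 188 and 155 in ptpkis2, against 271, 263 and 242 in sex4-3 (-0.71 ± 0.15, adjusted p = 0.0498). All 3 separated the genotypes on every array, as all 209 calls did. Their calls were lost, however, when any 1 ptpkis2 array or sex4-3 replicate 2 was left out. Of 18 alternatives, 13 called SKP2A, 12 called GME and 10 called bHLH121. The other 3 tested bHLH factors named by that symbol were not called, beside 0.865% of all probe sets tested called lower.

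Among the genes higher in ptpkis2, AT1G73600 had the largest rise with a named gene. Its signals were 590, 609 and 699 in ptpkis2, against 156, 101 and 108 in sex4-3. The genotypes were 5.29-fold apart (2.40 ± 0.17, adjusted p = 0.00017), and the call was kept under every alternative run. On sex1-3 arrays it averaged 8.02, and on wild type replicates 1 and 3 it averaged 223, between the 633 of ptpkis2 and the 122 of sex4-3. AT1G06000 had signals of 229, 215 and 283 in ptpkis2, against 36.7, 100 and 93.4 in sex4-3 (1.78 ± 0.32, adjusted p = 0.0225). Its lowest sex4-3 array was replicate 1, and its call was lost without any 1 of the ptpkis2 arrays. It was lost also without a trend in the variance and with a robust variance fit.

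BCAT4 and UGT74B1, which act in glucosinolate synthesis, and GSTU20 and APS3 were higher in ptpkis2. Glucosinolates are sulfur-rich defence compounds of the cabbage order, made from amino acids such as methionine. Of 15 listed genes for their synthesis only 2, BCAT4 and UGT74B1, have a named probe set here. Both were called higher, beside 0.667% of all probe sets tested. That list, too, was chosen with earlier results of these samples known. BCAT4, the aminotransferase that starts the lengthening of methionine, had signals of 288, 292 and 375 in ptpkis2, against 38.9, 83.6 and 111 in sex4-3 (2.15 ± 0.31, adjusted p = 0.00628). The genotypes were 4.44-fold apart, with sex4-3 replicate 1 the lowest array. UGT74B1, the glucosyltransferase that attaches glucose to the glucosinolate core, had signals of 184, 228 and 294 in ptpkis2, against 103, 85.2 and 87.5 in sex4-3 (1.33 ± 0.18, adjusted p = 0.0047). The lowest ptpkis2 array of UGT74B1 still lay well above the highest sex4-3 array.

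GSTU20, a glutathione transferase of the tau class, had signals of 395, 461 and 444 in ptpkis2, against 166, 138 and 240 in sex4-3 (1.29 ± 0.19, adjusted p = 0.00649). It was the only call among 5 tested members of its class, beside 0.667% of all probe sets tested called higher. The class median was -0.17. APS3, an ATP sulfurylase, which performs the entry step of sulfate assimilation, had signals of 182, 173 and 211 in ptpkis2, against 93.1, 82.7 and 91.8 in sex4-3 (1.08 ± 0.15, adjusted p = 0.0047). APS3 was chosen after its values were seen, as a call with a symbol. Wild type replicates 1 and 3 differed widely for several of these genes, with BCAT4 at 124 and 604, UGT74B1 at 75.2 and 196, and GSTU20 at 190 and 493, so those arrays bracketed the ptpkis2 level for BCAT4 and GSTU20. The sex1-3 means were below both mutants, at 35.6 for BCAT4, 49.1 for UGT74B1, 44.4 for GSTU20 and 48.4 for APS3. The calls of BCAT4 and GSTU20 were lost without ptpkis2 replicate 3, that of GSTU20 also without ptpkis2 replicate 2, and those of BCAT4, UGT74B1 and GSTU20 when the variance was fitted without a trend on signal.

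**Figure D4:**
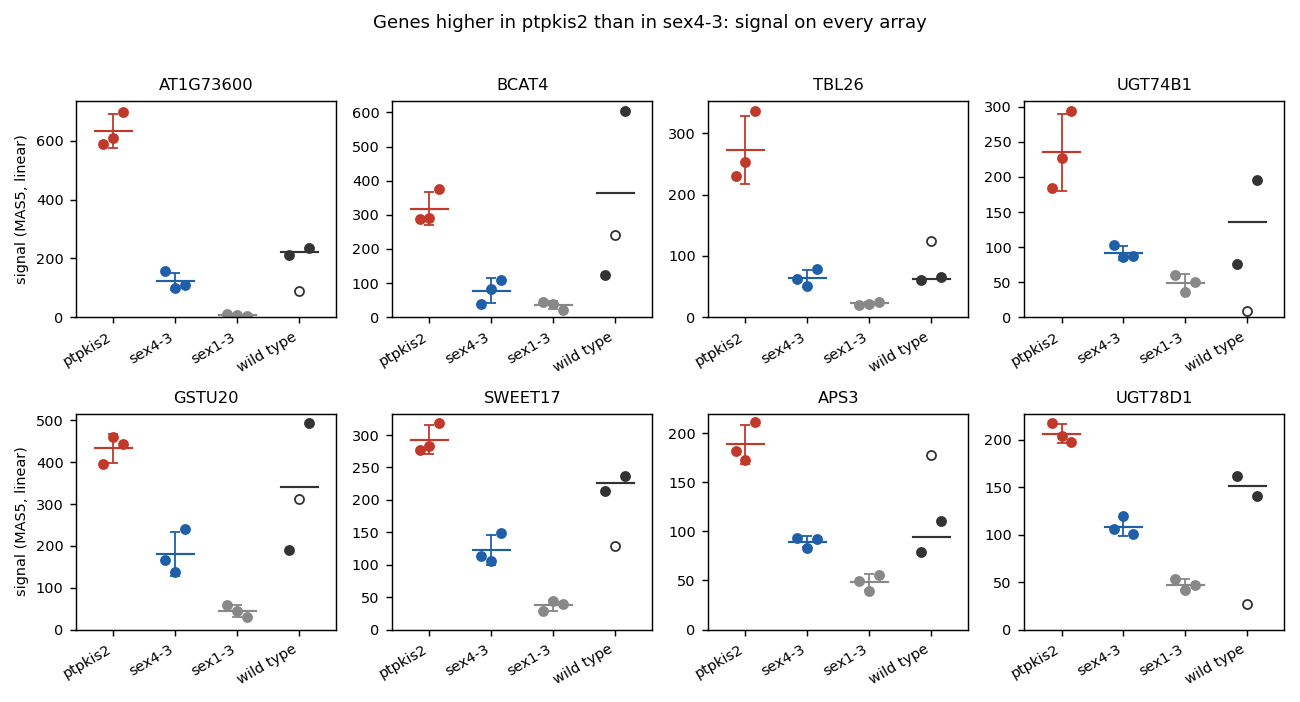
Signal of 8 genes called higher in ptpkis2 on every array (vertical axis, linear MAS5 signal), by genotype (horizontal axis), with the mean and SD of 3 arrays as bars; the wild type bar is the mean of replicates 1 and 3 alone, and the open circle is wild type replicate 2. For AT1G73600 the ptpkis2 arrays sit at 590 to 699, above the sex4-3 arrays at 101 to 156, and for BCAT4 wild type replicates 1 and 3 are far apart, at 124 and 604.

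Transcripts of 3 cell wall genes were also higher in ptpkis2. TBL26 belongs to a plant family whose studied members acetylate wall polysaccharides, and it had signals of 231, 253 and 336 in ptpkis2, against 61.6, 50.6 and 78.3 in sex4-3. This was a 4.32-fold difference without overlap (2.11 ± 0.20, adjusted p = 0.000558), and wild type replicates 1 and 3, at 61.0 and 65.2, stood near sex4-3. The other 14 of 15 tested TBL family members were not called, beside 0.667% of all probe sets tested called higher. The family median was 0.06 (-0.04 under median centring). GH9C2, a family 9 glycosyl hydrolase of the endoglucanase type, had signals of 155, 151 and 167 in ptpkis2, against 106, 85.7 and 57.9 in sex4-3 (0.97 ± 0.21, adjusted p = 0.047). All 4 tested genes of that hydrolase family had log2 fold changes above 0, between 0.50 and 0.97. GH9C2 was the only call among them, beside the same 0.667%. CSLC5, of the family that makes the glucan backbone of xyloglucan, had signals of 103, 120 and 115 in ptpkis2, against 63.0, 66.0 and 58.1 in sex4-3 (0.85 ± 0.16, adjusted p = 0.0229). EXPA8, an expansin, which loosens cell walls, was not called at -0.88 ± 0.20 (adjusted p = 0.0581), but it was called lower under median centring (adjusted p = 0.0306), with array weights, with the replicate block, in the fit with the sex1-3 arrays and without sex4-3 replicates 1 or 3. Its adjusted p ran between 0.00378 and 0.231 over the alternatives. GH9C2 and CSLC5, chosen after their values were seen, lost their calls without any 1 ptpkis2 array, without sex4-3 replicate 2 or without a trend in the variance. GH9C2 lost it also without sex4-3 replicate 3, under quantile normalization and median centring, and with no filter. The replicate block and the fit with the sex1-3 arrays did not call it either. GH9C2 was called in only 7 of 18 alternatives (adjusted p between 0.00315 and 0.32), and CSLC5 in 13 of 18.

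SWEET17, a fructose transporter of the vacuole membrane, had signals of 277, 284 and 319 in ptpkis2, against 113, 106 and 149 in sex4-3. The genotypes were 2.41-fold apart (1.27 ± 0.16, adjusted p = 0.00287). SWEET17 averaged 37.3 on sex1-3 arrays and 226 on wild type replicates 1 and 3. It was the only call among 7 tested SWEET genes, beside 0.667% of all probe sets tested called higher. The other 6 were not called and lay between -0.30 and 0.20. They include SWEET11, which releases sucrose for loading into the phloem, at -0.22 ± 0.17 (adjusted p = 0.605). UGT78D1, which attaches rhamnose to flavonols, had signals of 218, 204 and 198 in ptpkis2, against 106, 119 and 100 in sex4-3 (0.93 ± 0.14, adjusted p = 0.0077). It averaged 47.1 on sex1-3 arrays and 151 on wild type replicates 1 and 3. UGT78D1, chosen after its values were seen, and UGT74B1 were the 2 calls among 20 tested genes with a UGT symbol, beside the same 0.667%. The median of these 20 was 0.01 (-0.09 under median centring). Genes known here by locus alone, AT1G06000 among them, were not sorted into this family. In flavonoid synthesis 2 of 11 listed genes were tested and limma called 0, with 0 at an unadjusted p below 0.05, among them CHIL, a chalcone isomerase-like protein, at 0.11 ± 0.15 (adjusted p = 0.808). The call of UGT78D1 was lost without any 1 of the ptpkis2 arrays and without a trend in the variance, with an adjusted p of at most 0.0565 over the alternatives.

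The remaining rises among the 15 largest with a named gene were between 1.14 and 1.47 on the log2 scale. They were AT3G14395 (1.47), YAO (1.41), AT2G32220 (1.30), AT2G28080 (1.24), AT1G53645 (1.22), AT1G21440 (1.21), AT2G31730 (1.17) and AT4G34950 (1.14). AT4G34950 was the brightest, with signals of 415, 554 and 442 in ptpkis2, against 181, 237 and 219 in sex4-3 (1.14 ± 0.16, adjusted p = 0.0047). YAO, a nucleolar WD-repeat protein needed in embryos, had signals of 32.6, 54.0 and 44.0 in ptpkis2, against 20.0, 15.9 and 13.1 in sex4-3 (1.41 ± 0.30, adjusted p = 0.0423). Its sex4-3 signals, like those of AT2G32220, AT1G53645 and AT2G31730, lay below the median signal of 28.5 over all probe sets. The calls of YAO, AT1G53645 and AT2G31730 were lost when any 1 array other than sex4-3 replicate 1 was left out, and those of AT3G14395 and AT2G32220 when any 1 ptpkis2 array or sex4-3 replicate 2 was. YAO and AT1G53645 were each called in only 6 of 17 alternatives, and AT2G31730 in 10 of 17. Quantile normalization, the replicate block and the fit with the sex1-3 arrays were among those that did not call YAO and AT1G53645. The call of AT2G28080 was lost without ptpkis2 replicates 1 or 3 or sex4-3 replicate 2, and that of AT1G21440 without ptpkis2 replicate 3. Without a trend in the variance the calls of AT2G28080, AT3G14395 and AT4G34950 were lost, and with no filter those of AT3G14395 and AT2G32220. The fit with the sex1-3 arrays did not call AT2G32220 either. A further 10 called genes were higher by between 0.76 and 1.14 on the log2 scale.

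Several lists gave no call. In the cold and abscisic acid list 3 of 13 genes were tested and limma called 0, with 1 at an unadjusted p below 0.05. COR15A, a chloroplast protein that protects membranes in the cold, was at 1.70 ± 0.61 (unadjusted p = 0.0178, adjusted p = 0.22), with overlapping groups and a 95% interval of 0.36 to 3.04, and it did not pass the adjustment. COR27, a cold- and clock-regulated gene and the only 1 of 19 clock genes tested, was at -0.50 ± 0.17 (adjusted p = 0.189). Of the photosynthesis genes, RCA was at -0.04 ± 0.12 (adjusted p = 0.924) and PRK at -0.16 ± 0.11 (adjusted p = 0.557). Transcripts encoded in the chloroplast genome had 0 limma calls among 69 tested, with 18 at an unadjusted p below 0.05, beside 14.7% of all probe sets tested. Of the 69 log2 fold changes 54 were above 0 (45 under median centring), with a median of 0.23 and a range of -0.26 to 1.18, beside a median of 0.038 over all probe sets. The calls became 8 of the 69 without sex4-3 replicate 1, where 440 of all 13647 probe sets were called. With array weights they became 17, where 1108 of all 13647 were called. The chloroplast transcripts made up 3.46% to 4.09% of the total signal on ptpkis2 arrays and 2.99% to 3.70% on sex4-3 arrays, with overlap. Of 13 cytochrome P450 genes tested 0 were called by limma and 0 had an unadjusted p below 0.05, and of 7 beta-glucosidases tested 0 were called and 1 had an unadjusted p below 0.05. No gene of the trehalose phosphate synthase or nitrate assimilation list has a named probe set here, and 1 tested defence gene was not called.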

How the data were processed

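The deposited table gives a linear signal intensity for each probe set on each array, which the authors made with MAS5 and GCOS per the submitters' processing notes (no version given). The 2% trimmed mean was 100.01 on every array. With 3 arrays per genotype, precision is limited by their number.

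Log2 was taken with no pseudocount or further normalization. Of 22810 probe sets, 64 controls and the 40% of the rest with the lowest mean log2 signal over the 6 arrays were left out, leaving 13647. A model per probe set with genotype alone was fitted in R 4.3.3 using limma 3.58.1 (eBayes with a trend after lmFit, 4 residual degrees of freedom). Tests were two-sided, adjusted by Benjamini-Hochberg over all 13647 and called below 0.05. The code was tested on simulated data.

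Names came from the platform annotation, updated through a RefSeq table of TAIR10.1: 13513 probe sets have 1 gene (13436 in RefSeq), 503 several, and 8730 are unnamed here. The text names the largest called changes (up to 15 each way), without overlap and with a higher-group mean above the median signal, up to 4 called members of a list, every tested starch breakdown and SnRK1 gene, and 5 genes most like AT3G15450. Other genes were chosen after their values were seen. The members and lists were chosen with earlier results of these data known. Of 264 genes in 23 lists, 60 were named and 55 tested; 13 families were added by symbol. A planned ribosomal protein list could not be made from these names, and no promoter or protein sequence was used here. The alternatives were other normalizations, filters, floors and variance models, a fit with the sex1-3 arrays, a replicate block, array weights and each array left out.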

Additional observations from a re-analysis of the deposited data

How the results depend on the processing

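The 209 calls became 206 under quantile normalization, 336 under median centring of each array (258 lower), and 173, 201 and 231 with no filter or with the lowest 20% or 60% left out. Without a trend in the variance there were 50 calls (15 higher, 35 lower), and 1108 (596 higher, 512 lower) with array weights, an alternative added after seeing the data. Leaving out 1 array in turn gave 63 to 440 calls, 21 to 217 higher and 42 to 223 lower, with the most calls without sex4-3 replicate 1; 208 of the 209 were among those 440. The cause was not tested. Deviations from the genotype means correlated at 0.00777, -0.0051 and 0.0538 between same-numbered arrays, and at -0.0489 to 0.0477 between arrays of different numbers. Taken over all probe sets, these values could miss an effect on few genes. Whether the numbers pair the arrays therefore stays undecided. With the replicate number as a block 178 were called (93 higher, 85 lower), 155 of them shared. Of the 43 calls named in the text by the rule or by symbol, 17 were called under every alternative run that tested them, 22 were lost without the trend, and 15 to 20 were lost without any 1 ptpkis2 array or without sex4-3 replicate 2. No called value changed sign. Uncalled values near 0 did. DPE1 was 0.25 with array weights and between -0.39 and 0.20 with 1 array left out. Under median centring AT4G16360 was -0.04, AT2G28060 -0.03 and IVD -0.05. IVD was also -0.04 under quantile normalization, -0.01 with array weights and between -0.11 and 0.16 with 1 array left out, and RCA was 0.01, 0.04 and between -0.14 and 0.04. With 1 array left out AMY1 ran between -0.07 and 0.88, AT2G28060 between -0.01 and 0.12 and MGL between -0.48 and 0.04.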

Other observations

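The largest difference of all called probe sets belongs to one that is unnamed here, 256676_at. Its signals were 90.5, 81.5 and 85.8 in ptpkis2, against 9.20, 7.52 and 10.4 in sex4-3 (3.26 ± 0.25, limma adjusted p = 0.00017), and it lay at 67.2 to 102 on sex1-3 arrays and at 101, 64.6 and 103 on wild type replicates 1, 2 and 3. The low level was therefore seen on the sex4-3 arrays alone among the 12. A second unnamed rise, 251524_at, was at 2.17 ± 0.30 (adjusted p = 0.0047). The largest unnamed falls were 253161_at at -2.23 ± 0.41 (adjusted p = 0.0233) and 253061_at at -2.15 ± 0.18 (adjusted p = 0.0003). All 18 alternatives called 253061_at, but 253161_at was called in only 12 of 17. Its call was lost without ptpkis2 replicates 1 or 3, without sex4-3 replicates 2 or 3 and without a trend in the variance. The ptpkis2 signals of 253161_at, 15.9, 23.3 and 7.96, lay below the median signal of 28.5.

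The calls with a named gene were spread over the 5 nuclear chromosomes, with 1.26%, 1.40%, 1.08%, 1.41% and 1.02% of the tested named genes called on chromosomes 1 to 5. Among the 88 calls with 1 gene, only 1 pair of neighbouring genes was called together, AT5G16110 at -0.89 and AT5G16120 at -0.70. The 120 unnamed calls could not enter this search, so it cannot show whether calls cluster along the chromosomes.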
